A study of Mus musculus with 9 samples.

Results

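The genes described here are 10 axon guidance and axon sorting genes of olfactory sensory neurons, taken by symbol from the 55291 genes of a table of RNA-seq counts. They are the secreted semaphorins Sema3a and Sema3f, the semaphorin receptors Nrp1, Nrp2 and Plxna1, the Slit receptor Robo2, the ephrin Efna5 with its receptor Epha5, and the adhesion molecules Kirrel2 and Kirrel3. All 10 were present and all 10 passed the filter on low counts. RNA came from the dissected main olfactory epithelium of 9 C57BL/6 mice aged 8 to 12 weeks: 3 wild-type littermates, 3 Ms4a cluster-/- mice and 3 Ms4a6c-/- mice. The paper does not say of which knockout line the wild-type mice were littermates, so litter cannot be told apart from genotype. The Ms4a cluster knockout was made with CRISPR/Cas9 and the Ms4a6c knockout by homologous recombination, and both alleles are carried by every cell of the mouse. The Ms4a genes encode membrane proteins, and necklace sensory neurons, a sparse population of the epithelium, use members of the family as odorant receptors. According to the paper, Ms4a1, also removed in the Ms4a cluster knockout, is instead expressed in a sparse set of sensory neurons outside the necklace. Immune cells are named there as a further site of Ms4a expression.

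Each olfactory sensory neuron sends a single axon to the olfactory bulb, where axons of neurons with the same odorant receptor converge on a few glomeruli. Neuropilins and plexins bind secreted semaphorins and place axons along the main axes of the bulb, and Robo receptors read Slit proteins in the dorsal to ventral direction. Kirrel adhesion molecules and the ephrin-A and EphA pair are known to be expressed at different levels in different sensory neurons according to their activity, and to sort like axons together locally near the glomeruli.

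Library totals ran from 13954591 to 21987174 expected counts. The genotypes were checked with Ms4a6c itself, which had 53.95, 90.34 and 81.53 expected counts in the wild-type mice. It had 0 in each Ms4a cluster knockout mouse, and 0, 2.35 and 2 in the Ms4a6c knockout mice. Ms4a6c thus does not tell the knockouts apart. Ms4a1, another gene of the cluster, had 10, 10 and 14 expected counts in the wild-type mice. It had 0 in each Ms4a cluster knockout mouse, and 13, 26 and 8 in the Ms4a6c knockout mice. The summed level of 10 markers of mature olfactory sensory neurons lay between 11336 and 14324 CPM (counts relative to the library size after TMM scaling, edgeR's method), and none of the markers was at 0. In wild-type mouse 1 and Ms4a cluster knockout mouse 2, here called the gland-rich libraries, 7 nasal gland markers summed to 248112 and 224252 CPM, against 10423 to 44106 CPM in the other 7 mice. Bpifb9b alone gave 148513 and 144749 CPM of these sums, and Bpifb9a, Obp2a and Lcn11 were also high. Bpifa1, at 7836 and 7255 CPM, was the lowest of its genotype in both, and Muc5b was at 366 and 284 CPM. Aqp5 was only slightly higher, at 228 and 208 CPM. The list thus did not move together, and the name of these libraries refers to the genes that were high. Results that rest on these libraries are given with and without them, a choice made after seeing the data. In bulk tissue, fewer cells of a type and less RNA per cell cannot be told apart.

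Efna5 and Epha5 had the smallest p-values of the 10 genes against wild type, so the sequence around the transcription start of each is given, from RefSeq promoters on GRCm38.p6. Each run reads along the gene from 250 bases before to 50 bases after the start, with the transcribed bases in capitals. In the Epha5 run, capitals before the start mark TAATTA, a core of homeodomain sites. The Efna5 promoter lies on the minus strand at chr17:62881268-62881567 and the Epha5 promoter on the minus strand at chr5:84417333-84417632.
Efna5: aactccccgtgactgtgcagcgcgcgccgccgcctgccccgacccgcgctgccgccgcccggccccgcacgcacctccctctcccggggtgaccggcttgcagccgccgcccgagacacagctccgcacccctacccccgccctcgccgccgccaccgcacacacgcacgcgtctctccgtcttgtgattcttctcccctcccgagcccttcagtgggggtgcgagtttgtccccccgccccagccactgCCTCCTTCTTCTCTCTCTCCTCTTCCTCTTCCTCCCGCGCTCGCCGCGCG
Epha5: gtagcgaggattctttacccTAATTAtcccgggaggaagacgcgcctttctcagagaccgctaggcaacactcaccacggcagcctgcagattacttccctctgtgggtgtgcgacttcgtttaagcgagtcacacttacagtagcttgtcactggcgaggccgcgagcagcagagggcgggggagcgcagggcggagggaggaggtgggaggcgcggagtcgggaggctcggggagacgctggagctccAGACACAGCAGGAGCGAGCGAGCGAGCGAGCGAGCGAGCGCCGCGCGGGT

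The Efna5 run holds 38 CpG dinucleotides and the Epha5 run 30. The other matched promoters hold 2 to 37, the most in that of Nrp2, so this does not set the pair apart. Promoter sequences were matched for 7 of the 10 genes, as 9 promoters in all, and not for Sema3f, Kirrel3 and Plxna1. Not all lie at the annotated gene start. The Sema3a promoter, the one with 2 CpG, ends 271420 bases into the gene. Robo2 has promoters that begin 681195 and 1035718 bases before the start of its gene. Both strands were searched for TGACG, the half-site of the cyclic AMP response element, and for TAATTA. No stretch of the 9 promoters matched both. Among all 32851 promoters of this length, 20.8% held TGACG and 5.29% TAATTA. Among the 9 promoters the single match was the TAATTA of Epha5, 230 bases before the start.

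Levels between genes were compared per length, as TPM, a share of all transcripts, computed from the expected counts with the longest annotated transcript of each gene. Kirrel2, an adhesion molecule known to rise with neuronal activity, was far above the others, at a mean of 604 ± 239 TPM (SD, n = 9 mice), rank 161 among all genes. It held 70.0% of the summed TPM of the 10 genes and was on average 8.55 times as high as Plxna1, the next gene, in the same mouse. Its lowest mouse, at 285 TPM, was above the highest Plxna1 value of 89.8 TPM.

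Below Kirrel2 the mean levels fell from 71.6 TPM for Plxna1 to 7.19 TPM for Sema3a. Plxna1, the signalling co-receptor of neuropilins, was at a mean of 71.6 TPM and Nrp2, the receptor of Sema3f, at 43.1 TPM. The other receptors and Kirrel3 lay close together, with Kirrel3 at 28.6 TPM, Nrp1 at 24.4 TPM, Epha5 at 23.3 TPM and Robo2 at 22.4 TPM. With this length the ligands were lowest, with Efna5 at 19.2 TPM, Sema3f at 19.0 TPM and Sema3a at 7.19 TPM. Apart from Kirrel2 and Plxna1, the ranges of neighbours in this order overlapped over the 9 mice. For some neighbours the overlap came from the gland-rich libraries alone. Without these libraries Plxna1 was at 73.1 to 89.8 TPM and Nrp2 at 40.7 to 59.4 TPM. Sema3f was then at 20.6 to 24.3 TPM and Sema3a at 6.74 to 9.43 TPM. Within a mouse, Plxna1 was above Nrp2, Nrp2 above Kirrel3, and Sema3f above Sema3a in 9 of 9 mice. Nrp1 was above Epha5 in 4 of 9, wild-type mice 2 and 3 and Ms4a cluster knockout mice 1 and 3. Efna5 was above Sema3f in 4 of 9, all wild-type mice and Ms4a6c knockout mouse 1. With the summed length of all exons instead, Kirrel2, Plxna1 and Nrp2 stayed the highest 3 and Sema3a the lowest, but Nrp1 moved to 10.9 TPM and Epha5 to 12.3 TPM, below Efna5 at 23.2 TPM.

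**Figure D1:**
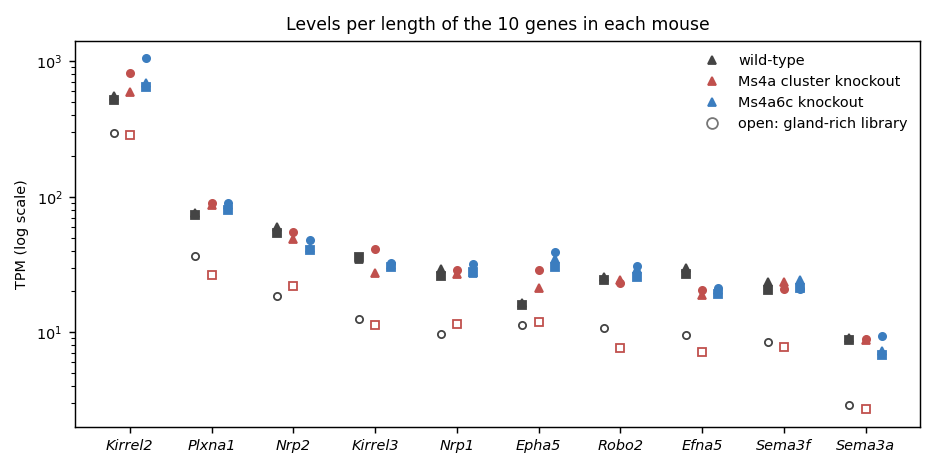
Level per length (TPM, logarithmic axis) of each of the 10 genes in each of the 9 mice, with the genes in order of their mean. Grey marks wild-type, red Ms4a cluster knockout and blue Ms4a6c knockout mice, and circles, squares and triangles mark mice 1, 2 and 3. Kirrel2 stands between 285 and 1051 TPM, above all other genes, and the open symbols of the gland-rich libraries are the lowest 2 of the 9 for each gene.

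The plot of TPM by mouse shows both gland-rich libraries lowest for all 10 genes, and TPM has the same total in every library. Comparisons between genotypes were made on counts scaled by TMM and given as CPM, which describes one gene across mice and not one gene against another. The test was edgeR's quasi-likelihood test, fitted once for the 9 mice, and p-values were adjusted by Benjamini-Hochberg over 23225 genes. Both knockouts were set against the same 3 wild-type mice, so their 2 comparisons with wild type are not independent.

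Across the 10 genes, none passed an adjusted p of 0.05 with edgeR in any of the 3 comparisons between genotypes. With the Ms4a cluster knockout against wild type, 2 of 10 genes had an unadjusted p under 0.05, with 0.0258% of all genes passing the adjusted test and 4.93% the unadjusted one, and DESeq2 called 0 of the 10 and 0.0689% of all genes. In the Ms4a6c knockout against wild type, 4 of 10 had an unadjusted p under 0.05, where 0.435% of all genes passed the adjusted and 10.5% the unadjusted test. DESeq2 called 1 of the 10 there, Epha5, and 1.7% of all genes. Between the knockouts, 3 of 10 had an unadjusted p under 0.05, with 0.443% and 9.38% of all genes passing, and DESeq2 called 0 of the 10 and 1.24% of all genes.

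The values of the 3 mice of one genotype lay wholly apart from those of the other for 1 of 10 genes when Ms4a cluster knockout and wild-type mice were compared, with 9.86% of all genes doing so. That gene, Efna5, was below wild type, as were 5.15% of all genes, and 4.71% were above. For Ms4a6c knockout and wild-type mice it held for 3 of 10 genes and 18.3% of all genes: Efna5 was below, with 8.55% of all genes, and Epha5 and Robo2 were above, with 9.71%. Between the knockouts it held for 3 of 10 genes and 16% of all genes: Nrp2 was above in the Ms4a cluster knockout, as were 7.86% of all genes, and Robo2 and Epha5 were lower, with 8.09%. The median log2 fold change of the 10 genes was -0.01, 0.10 and -0.08 in these comparisons, and that of all tested genes -0.002 to 0.007.

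Efna5 encodes ephrin-A5, a membrane-anchored ligand that repels or sorts axons bearing EphA receptors, and spans chr17:62604184-62881317 on the minus strand (GRCm38). It was at 35.2, 43.4 and 46.6 CPM in the wild-type mice, 32.0, 26.7 and 31.3 CPM in the Ms4a cluster knockout mice, and 33.7, 31.8 and 32.0 CPM in the Ms4a6c knockout mice. Every mouse of either knockout was below every wild-type mouse, and the nearest wild-type mouse was the gland-rich one. In the Ms4a cluster knockout the level was 0.721 times that of wild type, with a 95% interval of 0.611 to 0.850 (log2 fold change -0.47, SE 0.11, unadjusted p = 0.00127, adjusted p = 0.784 by edgeR with Benjamini-Hochberg adjustment). In the Ms4a6c knockout it was 0.778 times wild type, with an interval of 0.661 to 0.917 (log2 fold change -0.36, SE 0.11, edgeR adjusted p = 0.247). Neither passed the threshold over all genes. The knockouts themselves overlapped, at a log2 difference of -0.11 with an interval of -0.35 to 0.13.

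Without the gland-rich libraries the log2 fold change of Efna5 was -0.51 in the Ms4a cluster knockout (edgeR adjusted p = 0.0850) and -0.47 in the Ms4a6c knockout (edgeR adjusted p = 0.00973), which then passed. Leaving out wild-type mouse 1 alone was enough for that call, with an edgeR adjusted p of 0.0488. Over the 15 alternatives of the Ms4a6c knockout against wild type, Efna5 passed in 3. Its log2 fold change there ran from -0.47 to -0.28, and the adjusted p by edgeR or DESeq2 from 0.00973 to 0.587. The counts behind Efna5 ran from 268 to 821 per mouse, and the lowest was that of the gland-rich Ms4a cluster knockout mouse.

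Epha5, the EphA5 receptor tyrosine kinase that binds ephrin-A ligands, spans chr5:84054761-84417382 on the minus strand. Its level was 75.3, 46.8 and 47.4 CPM in wild-type mice, 81.3, 81.3 and 63.7 CPM in Ms4a cluster knockout mice and 113, 91.7 and 98.6 CPM in Ms4a6c knockout mice. All Ms4a6c knockout mice lay above all other mice, and the wild-type mouse nearest to the knockouts was again the gland-rich one. The level in the Ms4a6c knockout was 1.79 times that of wild type, with a 95% interval of 1.36 to 2.36 (log2 fold change 0.84, SE 0.18, unadjusted p = 0.000777, adjusted p = 0.100 by edgeR). DESeq2 on the same counts gave a log2 fold change of 0.84 and an adjusted p of 0.000524. Against wild type the Ms4a cluster knockout gave a log2 fold change of 0.42 with an interval of 0.02 to 0.81 (edgeR adjusted p = 0.968), and the mice overlapped with wild type. The Ms4a cluster knockout mice were below the Ms4a6c knockout mice by a log2 difference of -0.43, SE 0.18 (edgeR adjusted p = 0.491).

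Without the gland-rich libraries the log2 fold change of Epha5 in the Ms4a6c knockout was 1.11 (edgeR adjusted p = 0.00274) and in the Ms4a cluster knockout 0.62 (edgeR adjusted p = 0.274). Without wild-type mouse 1 alone the first was 1.10 (edgeR adjusted p = 0.00452). Over the 15 alternatives of that comparison the log2 fold change of Epha5 ran from 0.72 to 1.11, and the adjusted p passed the threshold in 7 of them, with a range from 0.000524 to 0.356.

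Summed markers of several other cell types also lay apart in the Ms4a6c knockout, in both directions. The summed level of 5 sustentacular cell markers was 20406 to 22084 CPM in Ms4a6c knockout mice against 16108 to 17013 CPM in wild-type and 16196 to 18265 CPM in Ms4a cluster knockout mice. Cyp2a5 and Cyp2g1 made up most of that sum, at 1.33 and 1.25 times wild type in the Ms4a6c knockout, whereas Ermn was at 0.755 times wild type, with all 3 mice below, and Krt18 at 1.003 times. The summed level of 7 olfactory ensheathing glia markers was 686 to 710 CPM in wild-type mice, 740 to 866 CPM in Ms4a cluster knockout mice and 757 to 893 CPM in Ms4a6c knockout mice. Apod alone gave 482 CPM of the wild-type sum, and in the Ms4a6c knockout S100b was at 1.02 and Sox10 at 0.949 times wild type, so the list did not move together. The sum of 4 macrophage markers was lower in the Ms4a6c knockout, at 76.4 to 83.1 CPM against 85.9 to 106 CPM in wild type and at least 93.4 CPM in the Ms4a cluster knockout. None of the genes of these 3 lists was called by edgeR or at 0 in every mouse. The part of these cell types in the levels of Efna5 and Epha5 was not tested. The mature neuron marker Gng13, a G protein subunit of olfactory transduction, fell by 0.89 on the log2 scale in the Ms4a6c knockout (edgeR adjusted p = 0.00121), the 1 of 10 mature neuron markers that was called, while the sums of these markers overlapped at 13610 to 14229 CPM against 12455 to 14324 CPM in wild type.

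**Figure D2:**
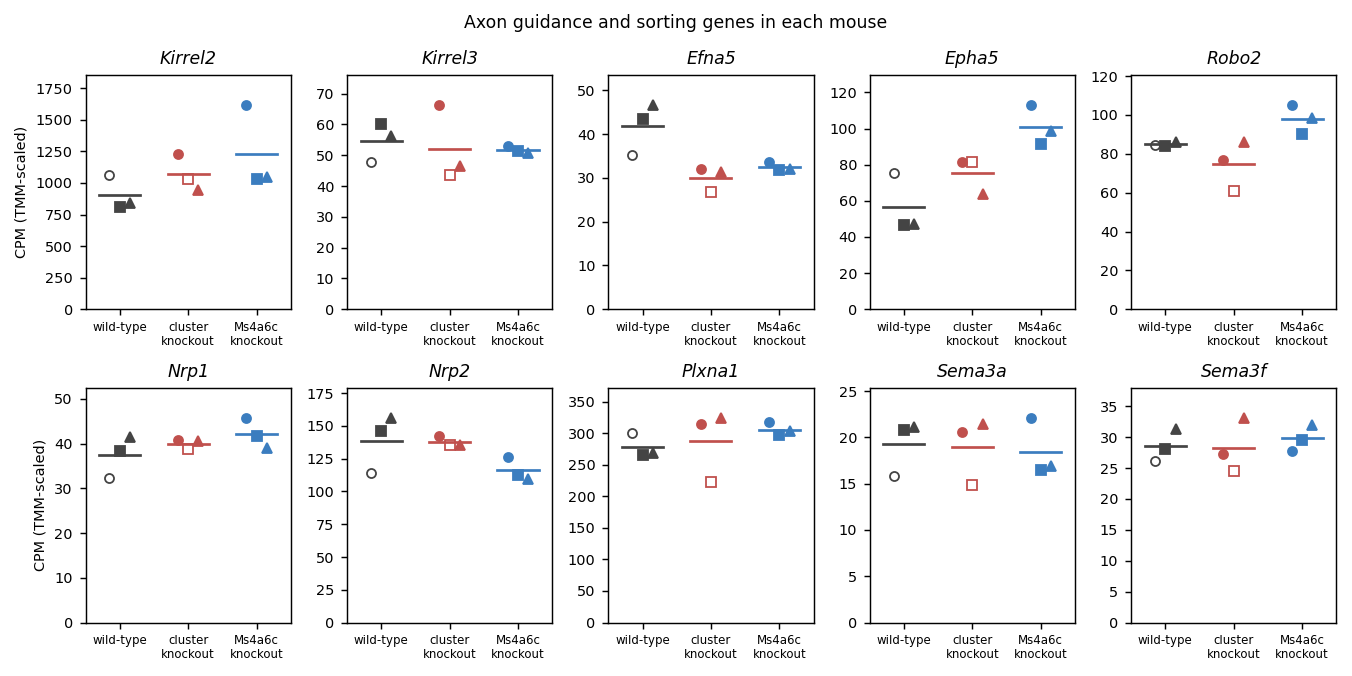
Level (CPM scaled by TMM, linear axes from 0) of each gene in each mouse, by genotype. Bars are the means of 3 mice, circles, squares and triangles mark mice 1, 2 and 3, and open symbols are the gland-rich libraries. All knockout mice lie below the wild-type mice for Efna5, and the Ms4a6c knockout mice lie above the other 6 for Epha5 and Robo2.

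The semaphorin ligands were low and did not separate the genotypes. Sema3a, which repels Nrp1-bearing axons, spans chr5:13125414-13602565 and was at 15.9, 20.8 and 21.1 CPM in wild-type mice, 20.6, 14.9 and 21.5 CPM in Ms4a cluster knockout mice and 22.1, 16.4 and 16.9 CPM in Ms4a6c knockout mice. Sema3f, the ligand of Nrp2, spans chr9:107681500-107710475 and ran from 24.5 to 33.0 CPM over the 9 mice. The groups overlapped in every comparison for both. For Sema3f the 95% interval of the log2 fold change was -0.26 to 0.25 in the Ms4a cluster knockout and -0.19 to 0.31 in the Ms4a6c knockout. For Sema3a the intervals were -0.39 to 0.37 and -0.44 to 0.32, resting on 149 to 538 counts per mouse.

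Among the semaphorin receptors, Nrp2 was lower in the Ms4a6c knockout mice than in most others. Nrp2, on chr1:62703285-62818695, was at 114, 146 and 156 CPM in wild-type mice, 143, 136 and 135 CPM in Ms4a cluster knockout mice and 126, 112 and 109 CPM in Ms4a6c knockout mice. The Ms4a6c knockout mice lay below all Ms4a cluster knockout mice and overlapped with wild type through wild-type mouse 1 alone. The log2 fold change in the Ms4a6c knockout against wild type was -0.26, SE 0.11 (edgeR adjusted p = 0.442), and in the Ms4a cluster knockout -0.01 with an interval of -0.24 to 0.23. The Ms4a cluster knockout exceeded the Ms4a6c knockout by 0.25, SE 0.11 (edgeR adjusted p = 0.507). Without the gland-rich libraries the change in the Ms4a6c knockout was -0.38 (edgeR adjusted p = 0.0430), which passed. This was the only 1 of the 15 alternatives of that comparison in which Nrp2 passed. Over them its log2 fold change ran from -0.38 to -0.16, and the adjusted p by edgeR or DESeq2 from 0.0430 to 0.770.

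The summed markers of immature olfactory sensory neurons, a stage in which axons are still growing, were also lower in some of the same mice. Their summed level over 6 markers was 428, 663 and 672 CPM in the wild-type mice in order of level, with wild-type mouse 1 lowest, and 462 to 615 CPM in the Ms4a6c knockout mice, with 507 to 653 CPM in the Ms4a cluster knockout. Within this list, Gap43, Stmn2, Dpysl3 and Dpysl5 were at 0.853 to 0.901 times wild type in the Ms4a6c knockout. Gng8 and Crmp1 went the other way, at 1.07 and 1.03 times. The sum of 5 fibroblast markers was likewise lowest among wild-type mice in mouse 1, at 3095 CPM against 5918 and 7287 CPM, and was 2901 to 4148 CPM in the Ms4a6c knockout and 4232 to 4662 CPM in the Ms4a cluster knockout. Col1a1, a collagen gene of that list, was at 0.571 times wild type in the Ms4a6c knockout (edgeR adjusted p = 0.398). Col1a1 and Col1a2 made up most of that sum. In the same knockout Dcn was at 0.955, Pdgfra at 1.02 and Lum at 0.856 times wild type, so the list did not move together. None of the genes of either list was called by edgeR or at 0 in every mouse, and the part of these cells in the Nrp2 level was not tested.

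Nrp1, the receptor of Sema3a, on chr8:128358604-128503363, was at 32.3, 38.4 and 41.4 CPM in wild-type mice, 40.7, 38.8 and 40.5 CPM in Ms4a cluster knockout mice and 45.6, 41.6 and 38.9 CPM in Ms4a6c knockout mice. The groups overlapped, with log2 fold changes of 0.10 (interval -0.11 to 0.31) and 0.17 (interval -0.04 to 0.38) against wild type. Plxna1 on chr6:89316314-89362620 was at 299.8, 266 and 269 CPM in wild-type mice, 315, 222.5 and 323 CPM in Ms4a cluster knockout mice and 318, 296 and 303 CPM in Ms4a6c knockout mice. Its groups overlapped too, at 0.04 (interval -0.23 to 0.32) and 0.14 (interval -0.14 to 0.41), and its lowest mouse was the gland-rich Ms4a cluster knockout.

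The Slit receptor Robo2 had the smallest p-value of the 10 genes between the knockouts. Robo2, on chr16:73891839-74411825, was at 84.4, 83.9 and 86.2 CPM in wild-type mice, 76.6, 60.9 and 86.3 CPM in Ms4a cluster knockout mice and 105, 89.9 and 98.2 CPM in Ms4a6c knockout mice. The Ms4a6c knockout mice were above all other mice. The Ms4a cluster knockout was below the Ms4a6c knockout by a log2 difference of -0.39, SE 0.11, with a 95% interval of -0.63 to -0.14 (unadjusted p = 0.00532, adjusted p = 0.274 by edgeR). Against wild type its log2 fold change was -0.18 for the Ms4a cluster knockout (edgeR adjusted p = 0.971) and 0.20 in the Ms4a6c knockout (edgeR adjusted p = 0.545). Without the gland-rich libraries the difference between the knockouts was -0.27 (edgeR adjusted p = 0.253), and the Ms4a cluster knockout against wild type was -0.06.

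The homophilic adhesion molecules Kirrel2 and Kirrel3 are known to label complementary sets of sensory neurons. Kirrel2, on chr7:30447534-30457690, was at 1061, 814 and 838 CPM in wild-type mice, 1232, 1029 and 948 CPM in Ms4a cluster knockout mice and 1617, 1034 and 1044 CPM in Ms4a6c knockout mice. The groups overlapped through wild-type mouse 1, and Ms4a6c knockout mouse 1 stood well above its own group. Against wild type, its log2 fold change was 0.24 for the Ms4a cluster knockout (interval -0.18 to 0.66, edgeR adjusted p = 0.971) and 0.45 in the Ms4a6c knockout (interval 0.02 to 0.87, edgeR adjusted p = 0.449). Leaving out 1 mouse at a time moved the first value between 0.13 and 0.37, and the second between 0.20 and 0.58, the lowest without Ms4a6c knockout mouse 1. Without the gland-rich libraries they were 0.40 (edgeR adjusted p = 0.623) and 0.58 (edgeR adjusted p = 0.189).

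Kirrel3, on chr9:34485894-35036716, was at 47.9, 60.0 and 56.1 CPM in wild-type mice, 66.3, 43.7 and 46.5 CPM in Ms4a cluster knockout mice and 53.2, 51.4 and 50.7 CPM in Ms4a6c knockout mice. The groups overlapped, and the spread was widest in the Ms4a cluster knockout, with a coefficient of variation of 23.6% against 2.5% in the Ms4a6c knockout. The log2 fold changes against wild type were -0.07 (interval -0.38 to 0.25) and -0.08 (interval -0.40 to 0.24).

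**Figure D3:**
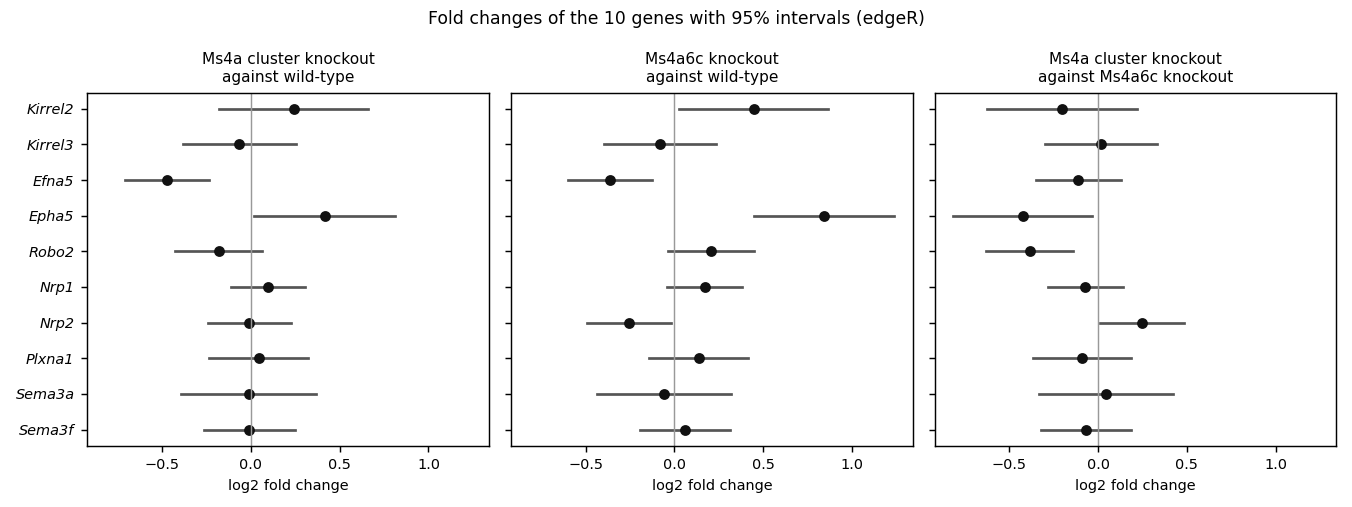
Log2 fold change of each gene in the 3 comparisons between genotypes, with 95% intervals from edgeR's quasi-likelihood fit as horizontal lines. In each comparison the intervals of 7 of the 10 genes lie within 0.5 log2 units of 0 on both sides. Efna5 lies below 0 in both comparisons with wild type, at -0.47 and -0.36, and Epha5 is highest in the Ms4a6c knockout at 0.84.

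The plot of fold changes shows how narrow the intervals were for most of these genes. In each comparison, 7 of the 10 intervals lay between -0.5 and 0.5 on the log2 scale, so a larger change of those 7 lay outside the intervals.

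Ratios between paired genes within a mouse do not depend on library scaling. They were computed per length with a pseudocount of 0.5 counts and compared by a two-sided exact permutation test, which with 3 mice against 3 cannot give a p below 0.1. Over 12 comparisons, 4 separated the groups wholly, and the smallest adjusted p was 0.3, so none passed. They were Nrp2 to Nrp1 in every comparison, and Efna5 to Epha5 in the Ms4a6c knockout against wild type. Whole separation gives just that p of 0.1, and its share over other gene pairs was not computed. The gene length shifts all 9 mice alike, so the ratios are read between mice and not against 1.

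The ratio of Nrp2 to Nrp1 had the least spread. It was 1.91, 2.06 and 2.04 in wild-type mice, 1.90, 1.90 and 1.81 for the Ms4a cluster knockout and 1.502, 1.46 and 1.52 in Ms4a6c knockout mice. The gland-rich libraries fell within or close to their own groups. In log2 units the SD over 3 mice was 0.06, 0.04 and 0.03. The Ms4a6c knockout was lower than wild type by a log2 difference of -0.42 and than the Ms4a cluster knockout by 0.32 (each exact permutation p = 0.1, adjusted p = 0.3). Leaving out 1 mouse at a time kept the first between -0.45 and -0.40. The Ms4a cluster knockout mice were also all below wild type, by a log2 difference of -0.10 (exact permutation p = 0.1, adjusted p = 0.3).

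The ratio of Efna5 to Epha5 was 0.849, 1.68 and 1.79 in wild-type mice, 0.716, 0.598 and 0.893 for the Ms4a cluster knockout and 0.542, 0.630 and 0.591 in Ms4a6c knockout mice. The Ms4a6c knockout mice were all below wild type, and the Ms4a cluster knockout mice overlapped with it through wild-type mouse 1. The log2 difference from wild type was -0.91 in the Ms4a cluster knockout (exact permutation p = 0.2, adjusted p = 0.4) and -1.22 in the Ms4a6c knockout (exact permutation p = 0.1, adjusted p = 0.3). Without wild-type mouse 1 these were -1.26 and -1.56.

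The ratio of Kirrel2 to Kirrel3 was 23.5, 14.4 and 15.9 in wild-type mice, 19.8, 25.03 and 21.7 for the Ms4a cluster knockout and 32.3, 21.4 and 21.9 in Ms4a6c knockout mice. The groups overlapped through wild-type mouse 1, with log2 differences from wild type of 0.33 and 0.497 (each exact permutation p = 0.3, adjusted p = 0.45). Without the gland-rich libraries the differences were 0.45 and 0.71, and every remaining knockout mouse was above both remaining wild-type mice. The ratio of Sema3f to Sema3a ran from 2.20 to 3.31 over the 9 mice and overlapped in every comparison.

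**Figure D4:**
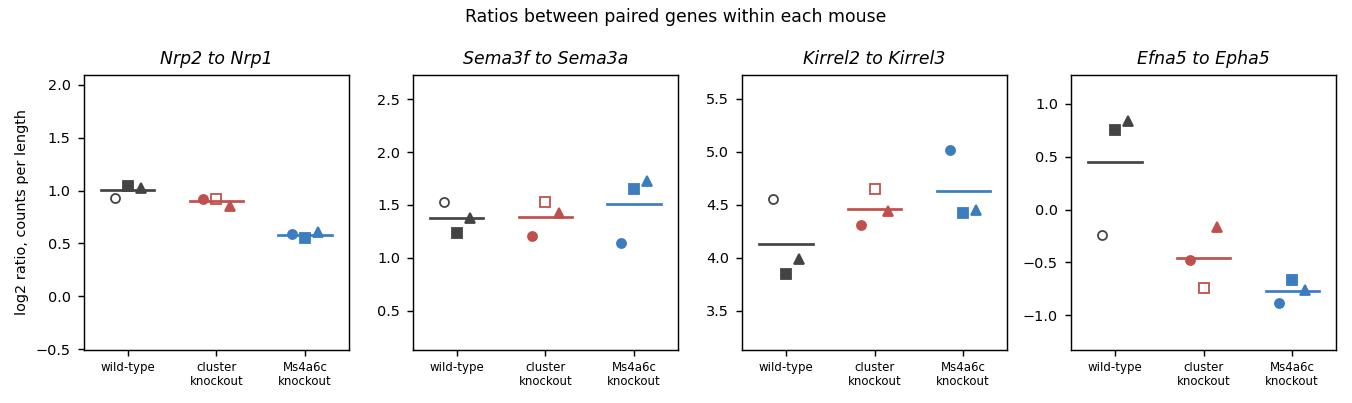
Log2 ratio of paired genes, as counts per length, in each mouse by genotype. Each panel spans the same number of log2 units, bars are means of 3 mice, and open symbols are the gland-rich libraries. The Ms4a6c knockout mice lie below all others for Nrp2 to Nrp1, at 0.55 to 0.61, and below all wild-type mice for Efna5 to Epha5.

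The wild-type mice also differed among themselves. Wild-type mouse 1, against the mean of the other two, was higher for Epha5 by 0.68 and for Kirrel2 by 0.36 log2 units and lower for Nrp2 by a log2 difference of -0.41, for Sema3a by -0.40 and for Efna5 by -0.35. Ms4a cluster knockout mouse 2 differed from the other two of its group by -0.52 for Plxna1, -0.50 for Sema3a and -0.42 for Robo2, and by 0.17 for Epha5.

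The rest of the pathway showed no called change. A list of 78 other axon guidance genes, of semaphorins, plexins, Slits and Robos, ephrins and Eph receptors, netrins with their receptors, and adhesion molecules, was tested in full. None was called by edgeR or DESeq2 in any of the 3 comparisons. An unadjusted p under 0.05 was reached by 3 with the Ms4a cluster knockout against wild type, 5 in the Ms4a6c knockout against wild type and 5 between the knockouts. Over all genes the shares were 4.93%, 10.5% and 9.38%, above those of the list in each comparison. The median log2 fold change of the list was 0.002, -0.02 and 0.01.

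With the Ms4a6c knockout against wild type the 5 smallest p-values belonged to Sema4b, Plxna3, Unc5c, Sema6c and Ephb3. Plxna3, a receptor partner of neuropilins, was at 151, 142 and 142 CPM in wild-type mice and 162, 183 and 183 CPM in Ms4a6c knockout mice, which is a log2 fold change of 0.27, SE 0.09 (edgeR adjusted p = 0.316). Sema4b was at 0.28, SE 0.10 (edgeR adjusted p = 0.311), and Sema6c at 0.46, SE 0.16 (edgeR adjusted p = 0.354) in the same comparison. The mice of the Ms4a6c knockout and wild type lay apart for these 3 genes and for 11 of the 78 in all, where 18.3% of all genes did so.

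The netrin receptor gene Unc5c was low and lay below wild type in the Ms4a6c knockout, at 1.68, 1.36 and 1.85 CPM against 2.49, 2.16 and 2.73 CPM (log2 fold change -0.59, edgeR adjusted p = 0.338). Ephb3 was at 0.24 (edgeR adjusted p = 0.456). Between the knockouts, Plxna4, another neuropilin partner, was at 147, 121 and 152 CPM in Ms4a cluster knockout mice and 159, 178 and 178 CPM in Ms4a6c knockout mice, a log2 difference of -0.29, SE 0.09 (edgeR adjusted p = 0.305). Robo4 was at 0.57 (edgeR adjusted p = 0.498) in that comparison, and Plxna3, Sema6c and Unc5c were the others of its 5 smallest p-values.

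Comparing Ms4a cluster knockout with wild-type mice, the smallest p-values of the list belonged to Epha10, Sema6b, Ntn4, Sema4a and Efnb1, each with an edgeR adjusted p of 0.968. Epha10 was at or near the limit of 3 counts, at 0.10 to 0.80 CPM against 0 to 0.06 CPM in wild type. Sema6b was at 2.45, 5.38 and 2.26 CPM against 1.92, 1.498 and 1.93 CPM, highest in the gland-rich knockout mouse. For Ntn4, Sema4a and Efnb1 the mice overlapped, at log2 fold changes of 0.22, 0.29 and 0.20.

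The genes whose levels followed 4 of these genes most closely over the 9 mice were sought among 16536 genes with a mean of at least 1 CPM, by Pearson's r of log2 CPM. Nrp2 was followed most closely by Sox4, a transcription factor of immature neurons (r = 0.973), Map4k4 (r = 0.973) and Sparc (r = 0.972). Nrp1 was followed by Ap2a2 (r = 0.95), Fam124a (r = 0.949) and Chn1 (r = 0.937). For Kirrel2 the genes were Pms1 (r = 0.971), Pacsin3 (r = 0.961) and the odorant receptor gene Olfr654 (r = 0.951), and for Kirrel3 Mapk10 (r = 0.95), Ppp1r9b (r = 0.947) and Afap1 (r = 0.924). The 9 mice share their genotype groups and the gland-rich libraries, so these values are descriptions.

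Some of these genes share their locus with other annotated genes. Antisense genes overlap Nrp2 (Gm29083), Kirrel3 (Kirrel3os) and Plxna1 (Gm26811), and the deposited counts of Plxna1 were not whole numbers. The library kit keeps the strand, but the strand setting of the counting is not given in the sources used here, so reads of these genes and their partners may not be separated.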

How the data were processed

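RNA-seq libraries of the main olfactory epithelium of 9 mice were analysed, 3 of each genotype, grouped by their labels. The authors prepared poly-A libraries with a directional kit, mapped paired-end reads to mm10 with STAR 2.6.1 and estimated counts per gene with RSEM 1.3.1, and the deposited values are expected counts without normalization. For the fits, values were rounded and genes kept where the 9 mice held 10 or more counts together. Libraries were scaled by TMM. edgeR 4.0.16 under R 4.3.3 fitted its quasi-likelihood model once for the 9 mice, p-values were adjusted by Benjamini-Hochberg, and the threshold was an adjusted p of 0.05. Intervals (95%) used the log2 fold change over the square root of F as standard error.

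DESeq2 1.42.0, other filters and scalings, marker covariates, a replicate block and leaving out mice were alternatives. Ratios were tested with scipy 1.17.1. TPM used transcript lengths of GENCODE M21, which matched 99.6% of the genes. The edgeR procedure was tested on simulated data. Totals were 13954591 to 21987174 expected counts per mouse. Reads carry no molecular identifiers, so the limit of 3 counts covers counting error only.

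The 10 genes, the pathway list and the marker lists were chosen with earlier results of these data known. Named from the pathway list were any called gene and the 5 smallest p-values of each comparison. Named by likeness were the 3 genes with the highest r for Nrp1, Nrp2, Kirrel2 and Kirrel3.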

Additional observations from a re-analysis of the deposited data

How the results depend on the processing

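The 30 log2 fold changes of the 10 genes were refitted under 15 alternatives each, 450 refits in all. Of these, 404 kept direction and side of the threshold, 11 newly passed it and 35 changed sign. The causes were not tested. All 11 were in the Ms4a6c knockout against wild type, where the count of the 10 genes called rose from 0 to 1 without the filter on low counts, with DESeq2 or with the mature neuron covariate, to 2 with the nasal gland covariate, and to 3 without both gland-rich libraries. Leaving out 1 mouse gave 0 to 2, the 2 without wild-type mouse 1. The count over all genes, 101 as reported, also rose under several of these settings, as given below. It rose without the filter, with DESeq2, with the mature neuron covariate and without the gland-rich libraries. A rise under those settings is thus not particular to the 10 genes. For the nasal gland covariate and the replicate block the count over all genes in this comparison is not given here.

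The sources do not say whether equal replicate numbers mark littermates, and the mice were treated as unpaired. Correlations of deviations from the group means ran from -0.537 to 0.107 for same-numbered mice. For differently numbered mice they ran from -0.309 to 0.522. With 3 mice per group and the gland-rich libraries among them, these values cannot decide whether the numbers pair mice. With the replicate block, edgeR called 1 of the 10 genes, Epha5, in the Ms4a6c knockout against wild type. In the other comparison with wild type, that of the Ms4a cluster knockout, the block gave 2 called genes in all instead of 6.

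Counts over all genes were 17 with DESeq2 and 3 to 7 leaving out 1 mouse for Ms4a cluster knockout against wild-type mice (6 as reported). In the Ms4a6c knockout against wild type (101) they were 182 without the filter, 341 with DESeq2, 233 with the mature neuron covariate, 350 without the gland-rich libraries and 59 to 143 leaving out 1 mouse. Between the knockouts (103) they were 155, 271 and 159 with the first 3 of these, and 66 to 97 leaving out 1 mouse.

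None of the values that changed sign had passed the threshold, and the farthest from 0 was Kirrel2 between the knockouts, at -0.20. For Ms4a cluster knockout against wild-type mice, the mature neuron covariate gave 0.035 for Nrp2, 0.0778 for Sema3a, 0.0335 for Sema3f and 0.0334 for Kirrel3, and leaving out the gland-rich libraries 0.0058 for Sema3a and 0.0203 for Sema3f. In the Ms4a6c knockout against wild type the mature neuron covariate gave 0.0017 for Sema3a, and between the knockouts leaving out the gland-rich libraries gave 0.0181 for Sema3f and 0.0591 for Plxna1. Leaving out 1 mouse moved Nrp2 between -0.13 and 0.0837, Sema3a between -0.13 and 0.13, Sema3f between -0.14 and 0.0781, Kirrel3 between -0.28 and 0.0421 and Plxna1 between -0.0505 and 0.20 with the Ms4a cluster knockout against wild type. It moved Sema3a between -0.21 and 0.0137 in the Ms4a6c knockout, and between the knockouts Sema3a between -0.0482 and 0.20, Sema3f between -0.20 and 0.0193, Kirrel2 between -0.32 and 0.0423, Kirrel3 between -0.20 and 0.12 and Plxna1 between -0.19 and 0.0612. The log2 ratio of Sema3f to Sema3a for Ms4a cluster knockout against wild-type mice ran from -0.0635 to 0.10, and that of Kirrel2 to Kirrel3 between the knockouts from -0.27 to 0.027. With the union of exons, the wild-type mean of Nrp1 was 9.69 TPM instead of 21.7 and that of Epha5 7.58 TPM instead of 14.6.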

Other observations

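Levels of the other axon guidance genes, over all 9 mice and per length, had a median of 8.45 TPM, against 23.8 TPM for the 10 genes of the report. At least 1 TPM was reached by 69 of the 78, and 36 reached 10 TPM. The highest 5, named after their values were seen, were the adhesion molecule gene Cntn4 at 208 ± 76.5 TPM (SD, n = 9 mice), the ephrin gene Efna3 at 185 ± 64.8 TPM, the membrane-anchored semaphorin gene Sema7a at 179 ± 71.9 TPM, the plexin gene Plxnb2 at 149 ± 47.9 TPM and the neural cell adhesion gene Ncam1 at 102 ± 33.9 TPM. These 5 were above Plxna1, and none of the 78 was above Kirrel2.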
